A study of Drosophila melanogaster with 12 samples.

Results

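The salivary glue protein genes encode the adhesive that a Drosophila larva secretes to fix itself to a surface before it pupariates. The 7 genes described here are Sgs1, Sgs3, Sgs4, Sgs5, Sgs7, Sgs8 and Eig71Ee. They were taken by symbol and not by a rule on their values, although earlier results of these data were known. They are 7 of the 13825 genes to which the deposited transcripts could be matched. All 7 were counted in all 12 libraries, and all 7 passed the filter on low counts.

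Glue is made in the polyploid secretory cells of the larval salivary gland, which switch on the glue genes in the last larval stage under the steroid hormone ecdysone and gland transcription factors such as fork head. The proteins are O-glycosylated in the Golgi, packed into large granules and released into the gland lumen at a later ecdysone pulse. Sgs1, Sgs3, Sgs4 and Eig71Ee encode mucin-like proteins with repeats that carry many sugar chains, whereas Sgs5, Sgs7 and Sgs8 encode short proteins without such long repeats.

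Poly(A)-selected RNA of salivary glands dissected at 96 hr after egg deposition (AED) was sequenced in 4 groups of 3 biological replicates, each a pool of glands. Larvae were grown at 29°C. According to the labels, every larva had the driver BxGal4 and the reporter Drs-GFP in a w1118 background, although the crosses that the study lists for its RNA-seq panels name Drs-GFP only beside the l(2)gl RNAi. BxGal4 is an enhancer trap that is active throughout the secretory epithelium. The control (w1118-glands) carried no UAS-transgene. RasV12-glands expressed a dominant-active Ras from UAS-RasV12, and lglRNAi;RasV12-glands in addition expressed an RNAi against the cell polarity gene l(2)gl from UAS-l(2)glRNAi. Entire glands were used for these 3 groups, while the last group (PP) was the proximal part of lglRNAi;RasV12-glands, closest to the duct. The sample labels call this part posterior. No PP of w1118- or RasV12-glands was analysed here, so that genotype and gland part cannot be told apart where the PP is compared with w1118- or RasV12-glands.

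Libraries held between 27584224 and 73043536 estimated counts. Levels are given as CPM, counts per 1000000 after TMM normalization, a scaling that assumes that most genes are level between libraries, and as TPM, which have the same total but account for transcript length. The secretory cell markers fkh, sage and CrebA were detected in every group, with a summed level between 2448 and 2662 CPM in w1118-glands and between 943 and 1158 CPM in the PP. This sum was carried by sage and CrebA, whereas fkh did not follow it, with means of 247 CPM in w1118-glands and 333 CPM in the PP (log2 fold change 0.43, SE 0.12, adjusted p = 0.00831, edgeR) and no overlap of the replicates. In bulk RNA, fewer secretory cells in a sample and less glue RNA per cell cannot be told apart.

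The glue genes lie at 5 places of the genome (dm6 coordinates). Sgs8 (FBgn0003378, 3L, 11508967 to 11509394, minus strand), Sgs7 (FBgn0003377, 3L, 11509861 to 11510247, plus strand) and Sgs3 (FBgn0003373, 3L, 11512221 to 11513402, plus strand) form the 68C cluster. In this cluster, which spans 4436 bases, Sgs8 and Sgs7 are separated by 466 bases and Sgs7 and Sgs3 by 1973 bases. Eig71Ee (FBgn0004592, 3L, 15654472 to 15656010, minus strand) belongs to the 71E cluster of ecdysone-induced genes on the same arm. Sgs1 (FBgn0003372) is located on 2L from 4937409 to 4941423 and Sgs5 (FBgn0003375) on 3R from 17595362 to 17596112, both on the plus strand. Sgs4 (FBgn0003374, X, 3250089 to 3251040, plus strand) consists of 1 exon and lies inside dnc (X, 3176440 to 3343767), a far longer gene on the same strand that encodes a cAMP phosphodiesterase. Each glue gene was represented by 1 transcript, from 321 bases for Sgs7 to 3950 bases for Sgs1, and the estimated counts of all 7 were whole numbers in every library.

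In w1118-glands the glue genes were among the most abundant transcripts. Per length, Sgs7 ranked 1 of all genes in every w1118-replicate with 184745 ± 27976 TPM (SD, n = 3), Sgs3 ranked 2 with 100217 ± 15228 TPM (SD, n = 3), and Sgs8 ranked 3 with 62244 ± 10275 TPM (SD, n = 3). Sgs5 at 36928 ± 9188 TPM, Sgs4 at 33286 ± 3696 TPM and Eig71Ee at 30670 ± 1444 TPM (SD, n = 3 each) followed. The replicate ranges of Sgs5 and Sgs4 overlapped, and so did those of Sgs4 and Eig71Ee, so that these neighbours were not separated beyond their spread. Sgs1 was the lowest glue gene per length with 11338 ± 1223 TPM (SD, n = 3), and it ranked 10 in each w1118-replicate. For Sgs7, the effective length behind TPM was between 102.6 and 121.3 bases of 321, so its level per length depends strongly on this estimate.

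The order of the mean levels per length was that of w1118-glands in both kinds of entire glands with RasV12, and it changed in the PP. In RasV12-glands Sgs7 again led with 123381 ± 21020 TPM (SD, n = 3), but the ranges of Sgs3, Sgs8 and Sgs5 overlapped from one to the next, at means of 41993, 39141 and 35082 TPM. In lglRNAi;RasV12-glands, among neighbours only the ranges of Eig71Ee and Sgs1, at 2826 and 1897 TPM, overlapped. In the PP, Sgs5 at 21819 ± 2616 TPM (SD, n = 3) came directly after Sgs7 at 41830 ± 10335 TPM (SD, n = 3). The PP-range of Sgs5 overlapped with that of Sgs3 at 20507 ± 5362 TPM (SD, n = 3), which in turn overlapped with that of Sgs8. Sgs1, which ranked 10 in w1118-glands, ranked between 140 and 163 in the PP.

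Together, the glue genes took 37.0%, 26.7% and 29.3% of the estimated counts of the w1118-replicates 1, 2 and 3. The share was between 9.75% and 11.2% in RasV12-glands, between 9.40% and 10.9% in lglRNAi;RasV12-glands and between 5.16% and 6.01% in the PP. No library with RasV12 reached the lowest w1118-share, the entire glands of both RasV12-genotypes overlapped, and all PP-libraries were below all entire glands. The 3 genes of the 68C cluster alone held 15.5% ± 3.14 of the counts in w1118-glands and 2.98% ± 0.329 in the PP (SD, n = 3 each). In percent of TPM, where short transcripts weigh more, the summed glue share was 45.9% ± 6.78 in w1118-glands, 26.1% ± 2.30 in RasV12-glands, 24.5% ± 0.765 in entire lglRNAi;RasV12-glands and 10.9% ± 0.886 in the PP (SD, n = 3 each).

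**Figure D1:**
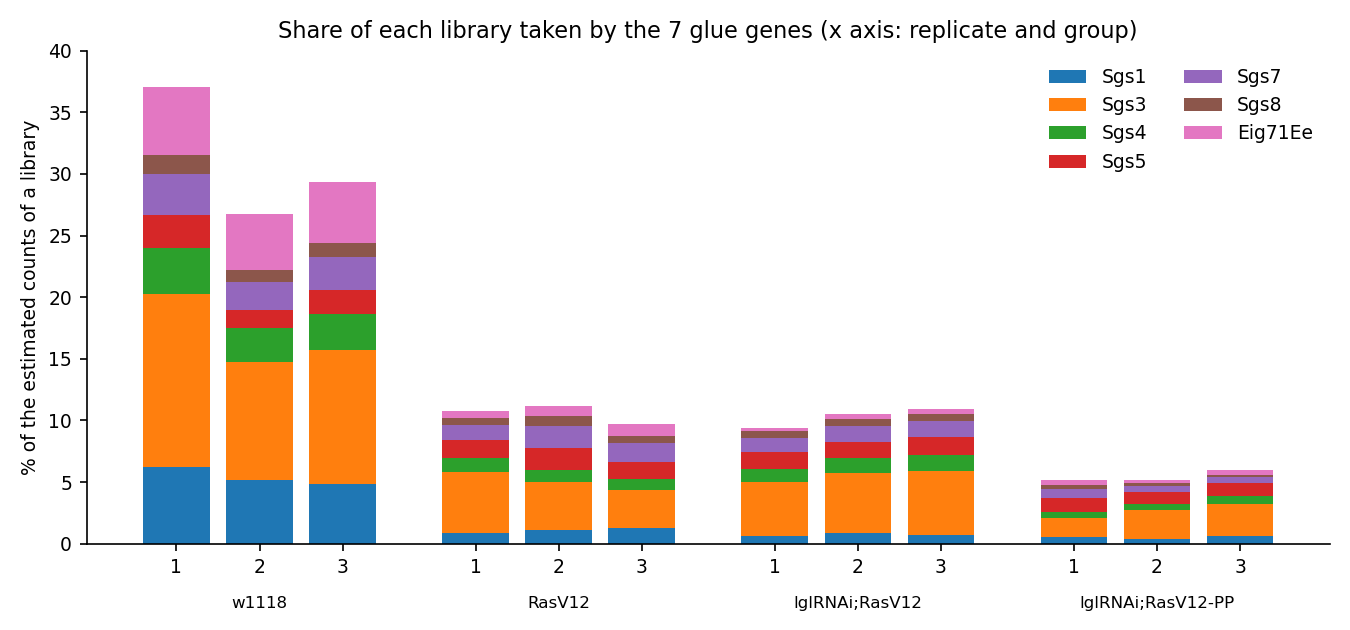
Share of each library (in % of its estimated counts, stacked by gene) taken by the 7 glue genes in the 3 replicates of each group. The w1118-bars reach between 26.7% and 37.0%, the bars of the entire RasV12- and lglRNAi;RasV12-glands between 9.40% and 11.2%, and those of the PP at most 6.01%.

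Such a large share affects the scaling of all other genes. TMM factors were between 0.733 and 0.835 in w1118-glands and between 1.04 and 1.14 in all other libraries. Once the glue genes were left out of the factors and of the library totals, the factors ranged from 0.931 to 1.04 over all 12 libraries. As the totals changed too, the resulting scale hardly moved. The median log2 fold change of all tested genes in RasV12-glands against w1118-glands was then -0.002, against -0.001 with TMM over all genes. With plain library sizes in place of TMM, the median log2 fold change of all tested genes against w1118-glands was 0.42 in RasV12-glands, 0.43 in entire lglRNAi;RasV12-glands and 0.56 in the PP, whereas with TMM it was between -0.00 and 0.10. All fold changes below are on the TMM scale unless stated.

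To ask how RasV12 changes the glue genes, each RasV12-group was compared with w1118-glands. A gene was counted as lower or higher if its log2 fold change was 1 or more in size and its adjusted p did not exceed 0.05 (quasi-likelihood test of edgeR, Benjamini-Hochberg adjustment over 9012 genes). In RasV12-glands 6 of 7 glue genes were lower, where 8.99% of all tested genes were lower. In lglRNAi;RasV12-glands again 6 of 7 were lower (7.87% of all tested genes), and in the PP 7 of 7 (11.3% of all tested genes). Sgs5 was the member that missed the limit on the fold change in both kinds of entire glands. In each of the 3 comparisons, the replicates of all 7 genes were below every w1118-replicate, as was the case for 27.2%, 27.1% and 27.6% of all tested genes, respectively. The median log2 fold change of the 7 genes was -1.97, -1.67 and -2.88, respectively. These comparisons share the w1118-libraries and are therefore not independent of each other. The w1118-replicate 1 was the highest library for all 7 genes.

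**Figure D2:**
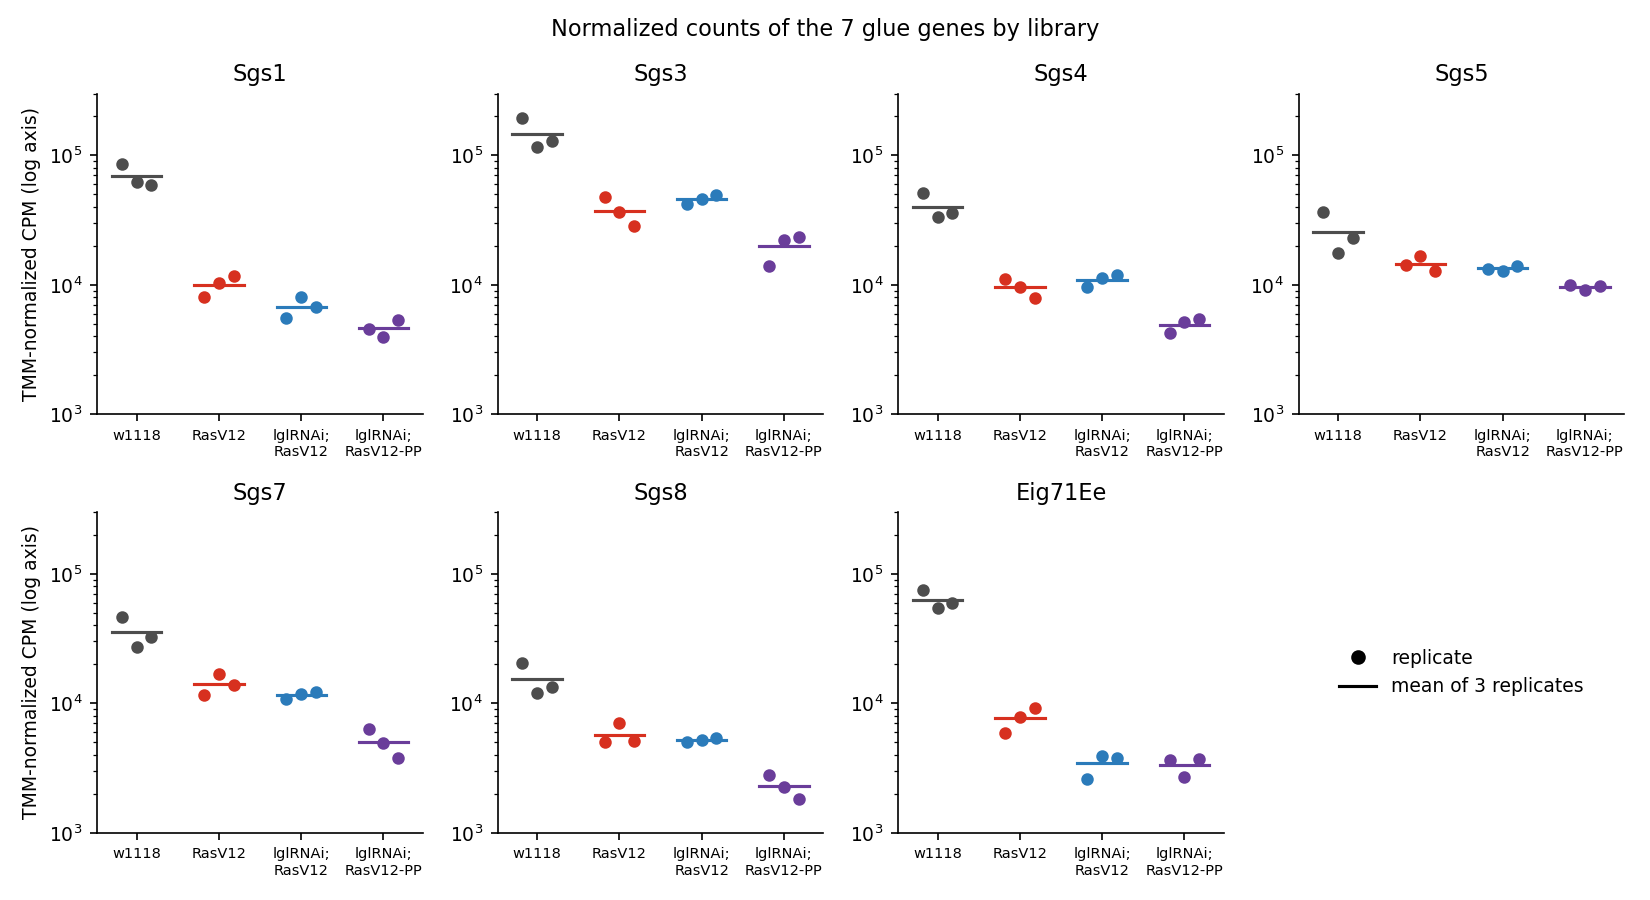
TMM-normalized CPM (log axis) of the 7 glue genes, with 1 point per replicate and a line at the mean of each group. For every gene all w1118-points lie above all other points, and all PP-points lie below those of both entire RasV12-groups except for Eig71Ee, where they overlap with the lglRNAi;RasV12-points.

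Among the mucin-like glue genes, Sgs1 had 85142, 62407 and 58478 CPM in the w1118-replicates 1, 2 and 3. It had 8058, 10306 and 11717 CPM in the RasV12-replicates, 5568, 8090 and 6719 CPM in the lglRNAi;RasV12-replicates, and 4562, 3952 and 5305 CPM in the PP-replicates. The w1118-libraries were far above all others, and the entire RasV12- and lglRNAi;RasV12-glands overlapped narrowly. Compared to w1118-glands, Sgs1 had a log2 fold change of -2.78 in RasV12-glands (SE 0.20, adjusted p = 1.11e-06, edgeR), -3.34 in lglRNAi;RasV12-glands (SE 0.21, adjusted p = 3.50e-07, edgeR) and -3.90 in the PP (SE 0.21, adjusted p = 9.19e-08, edgeR). The mean CPM that remained was 14.6%, 9.89% and 6.71% of the w1118-mean.

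Eig71Ee takes its name from its ecdysone-induced place in the 71E cluster. It had 75028, 54514 and 59763 CPM in the w1118-replicates and 5905, 7848 and 9200 CPM in the RasV12-replicates. The lglRNAi;RasV12-replicates had 2579, 3927 and 3788 CPM and the PP-replicates 3671, 2697 and 3686 CPM. Here the entire lglRNAi;RasV12-glands and the PP were interleaved, and both were below all RasV12-libraries. Relative to w1118-glands, Eig71Ee was 8.25-fold lower in RasV12-glands (log2 fold change -3.04, SE 0.22, adjusted p = 1.11e-06, edgeR). It was 18.4-fold lower in lglRNAi;RasV12-glands (log2 fold change -4.20, SE 0.24, adjusted p = 1.82e-07, edgeR) and 18.8-fold lower in the PP (log2 fold change -4.23, SE 0.24, adjusted p = 9.62e-08, edgeR). It thereby had the largest fold decrease of the 7 genes in all 3 comparisons.

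Sgs3, the most counted glue gene, had 192490, 116364 and 129773 CPM in the w1118-replicates. The RasV12-replicates had 47638, 36268 and 28193 CPM, the lglRNAi;RasV12-replicates 42129, 45969 and 49601 CPM, and the PP-replicates 14043, 22303 and 23229 CPM. The RasV12-replicate 1 lay inside the lglRNAi;RasV12-range and the other 2 below it, and no PP-library reached an entire gland. The log2 fold change against w1118-glands was -1.97 in RasV12-glands (SE 0.25, adjusted p = 5.49e-05, edgeR), -1.67 in lglRNAi;RasV12-glands (SE 0.25, adjusted p = 0.000162, edgeR) and -2.88 in the PP (SE 0.26, adjusted p = 2.68e-06, edgeR). In a limma fit on TPM, Sgs3 in lglRNAi;RasV12-glands was at -0.88 and missed the limit. Despite its decrease, Sgs3 had the highest count of all genes in each entire gland library.

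Sgs4, a mucin-like gene of the X chromosome, had 50690, 33402 and 35587 CPM in the w1118-replicates. It had between 7938 and 11129 CPM in RasV12-glands, between 9589 and 11849 CPM in lglRNAi;RasV12-glands and between 4229 and 5395 CPM in the PP. Only the entire RasV12- and lglRNAi;RasV12-glands overlapped. The log2 fold change against w1118-glands was -2.06 in RasV12-glands (SE 0.18, adjusted p = 3.89e-06, edgeR), -1.87 in lglRNAi;RasV12-glands (SE 0.18, adjusted p = 6.65e-06, edgeR) and -3.02 in the PP (SE 0.19, adjusted p = 2.06e-07, edgeR). All of dnc, in which Sgs4 lies, had between 16.1 and 56.2 CPM over the 12 libraries, while Sgs4 had at least 4229 CPM.

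Among the short glue genes, Sgs7 had 46238, 27365 and 32510 CPM in the w1118-replicates and 11674, 16850 and 13762 CPM in the RasV12-replicates. Sgs8, its neighbour in the 68C cluster, had 20506, 12088 and 13328 CPM in the w1118-replicates and 5037, 7073 and 5086 CPM in the RasV12-replicates. For both genes the RasV12-replicates were below all w1118-replicates, and replicate 2 was the highest of its group. Against w1118-glands, Sgs7 had a log2 fold change of -1.33 in RasV12-glands (SE 0.22, adjusted p = 0.000414, edgeR) and Sgs8 one of -1.42 (SE 0.22, adjusted p = 0.000214, edgeR). With library sizes in place of TMM they were at -0.88 and -0.97 and in a limma fit on TPM at -0.59 and -0.67, which missed the limit on the fold change.

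In lglRNAi;RasV12-glands, Sgs7 had between 10810 and 12162 CPM and Sgs8 between 4985 and 5398 CPM. Their coefficients of variation were 6.05% and 3.98%, against 27.6% and 29.7% in w1118-glands. Against w1118-glands the log2 fold changes were -1.61 for Sgs7 (SE 0.22, adjusted p = 9.94e-05, edgeR) and -1.56 for Sgs8 (SE 0.22, adjusted p = 0.000101, edgeR), of which the limma fit on TPM left -0.87 and -0.78. In the PP, Sgs7 had 6351, 4936 and 3769 CPM and Sgs8 2808, 2268 and 1835 CPM. All PP-libraries were below all libraries of entire glands. Relative to w1118-glands, Sgs7 was 7.05-fold lower (log2 fold change -2.82, SE 0.23, adjusted p = 1.42e-06, edgeR) and Sgs8 6.65-fold lower (log2 fold change -2.73, SE 0.23, adjusted p = 1.40e-06, edgeR).

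Sgs5 had the smallest fold decrease of the 7 genes in each comparison with w1118-glands. It had 36182, 17610 and 22860 CPM in the w1118-replicates, 14322, 16575 and 12742 CPM in the RasV12-replicates, 13326, 12861 and 14043 CPM in the lglRNAi;RasV12-replicates and 9973, 9061 and 9754 CPM in the PP-replicates. Each group with RasV12 was below all w1118-libraries, but the highest RasV12-replicate was close to the w1118-replicate 2. The log2 fold change against w1118-glands was -0.81 in RasV12-glands (SE 0.21, adjusted p = 0.00654, edgeR) and -0.93 in lglRNAi;RasV12-glands (SE 0.21, adjusted p = 0.00281, edgeR), which passed the limit on the adjusted p but not that on the fold change. Without the w1118-replicate 2 it passed both limits in both comparisons, with log2 fold changes of -1.03 and -1.14, and without the w1118-replicate 3 in lglRNAi;RasV12-glands, with -1.01. In TPM, which sum to the same total in each library, Sgs5 overlapped between w1118-glands, with 28660 to 46819 TPM, and RasV12-glands, with 31496 to 38155 TPM. In the PP the log2 fold change to w1118-glands was -1.41 (SE 0.21, adjusted p = 0.000125, edgeR), which was -0.92 with library sizes and -0.74 in a limma fit on TPM and then missed the limit.

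**Figure D3:**
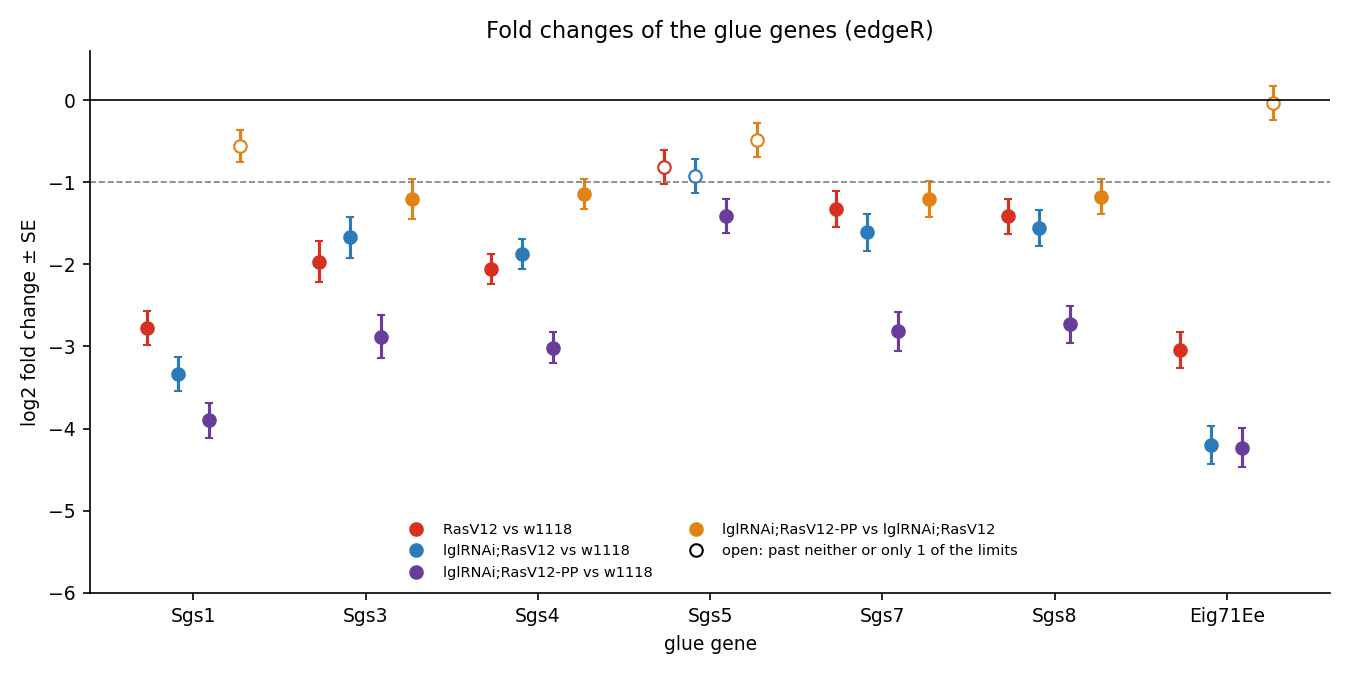
Log2 fold changes (error bars: SE) of the 7 glue genes from edgeR in the 3 comparisons with w1118-glands and in the comparison of the PP with entire lglRNAi;RasV12-glands. Filled points pass both limits, open points do not, and the dashed line marks a log2 fold change of -1. Eig71Ee and Sgs1 have the lowest values against w1118-glands and Sgs5 the highest, whereas Eig71Ee is at -0.03 between the PP and entire glands.

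Besides the replicate number, each sample has a deposited label that ends in another number, whose meaning is not given in the sources used here. This other number was the same for the RasV12-replicates 2 and 3 and all w1118-replicates. The contrast of these libraries was taken from the fit without the RasV12-replicate 1, which kept the libraries of the other groups. It is therefore the same result as that omission of a replicate. In it the same 6 genes were lower in RasV12-glands, with log2 fold changes between -1.21 for Sgs7 and -2.89 for Eig71Ee. Sgs5 was at -0.80 (adjusted p = 0.0242, edgeR). No lglRNAi;RasV12-library has this number in common with a w1118-library, so that the number and the genotype cannot be told apart there.

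Next, the effect of l(2)gl RNAi on top of RasV12 was examined in entire glands. Of the 7 glue genes, only Eig71Ee was lower in lglRNAi;RasV12- than in RasV12-glands, by 2.23-fold (log2 fold change -1.16, SE 0.21, adjusted p = 0.00553, edgeR), where 1.3% of all tested genes were lower. Its replicates did not overlap, as for 17.8% of all tested genes. It missed the limit on the fold change when the lglRNAi;RasV12-replicate 1, the lowest of its group, was left out, with a log2 fold change of -0.99. Sgs1 differed by -0.56 (SE 0.19, adjusted p = 0.0790, edgeR) and did not pass. The log2 differences of the other 5 genes were between -0.28 for Sgs7 (SE 0.22) and 0.30 for Sgs3 (SE 0.24), and the replicates overlapped in each case.

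The PP was then compared with entire lglRNAi;RasV12-glands of the same genotype. Here 4 of 7 glue genes were lower, where 6.24% of all tested genes were lower. These were Sgs3 (log2 fold change -1.21, SE 0.24, adjusted p = 0.00276, edgeR), Sgs4 (-1.14, SE 0.18, adjusted p = 0.000557, edgeR), Sgs7 (-1.21, SE 0.22, adjusted p = 0.00153, edgeR) and Sgs8 (-1.18, SE 0.21, adjusted p = 0.00152, edgeR). All 4 were thus lower by 2.21- to 2.31-fold, and each passed the limits without any one of the 6 libraries. Sgs1 differed by -0.56 (SE 0.19, adjusted p = 0.0384, edgeR) and Sgs5 by -0.48 (SE 0.21, adjusted p = 0.0859, edgeR), and neither reached the limit on the fold change. Eig71Ee had a difference of -0.03 (SE 0.21, adjusted p = 0.916, edgeR), whose sign turned with library sizes in place of TMM and without single libraries. Except for Eig71Ee, every PP-replicate was below every replicate of the entire glands, which held for 24.5% of all tested genes.

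Against RasV12-glands, 4 of 7 glue genes were lower in the PP (5.44% of all tested genes). These were Sgs7 (log2 fold change -1.49, SE 0.22, adjusted p = 0.000386, edgeR), Sgs8 (-1.32, SE 0.21, adjusted p = 0.000724, edgeR), Eig71Ee (-1.19, SE 0.21, adjusted p = 0.00113, edgeR) and Sgs1 (-1.12, SE 0.19, adjusted p = 0.001, edgeR). Without the RasV12-replicate 3, Sgs1 was at -0.99 and missed the limit, while Sgs3 and Sgs4 passed it at -1.07 and -1.07. Both also passed without the PP-replicate 3, at -1.03 and -1.02. With all libraries, Sgs3 at -0.91 (SE 0.24), Sgs4 at -0.96 (SE 0.18) and Sgs5 at -0.60 (SE 0.21) passed the limit on the adjusted p alone. The replicates of all 7 genes were below those of RasV12-glands, as for 24.7% of all tested genes.

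The ratios of the glue genes to each other within a library do not depend on the scaling between libraries, and they were not constant. The ratio of Sgs4 to Sgs3, in log2 of TPM, was -1.59 ± 0.06 in w1118-glands, -1.66 ± 0.14 in RasV12-glands, -1.80 ± 0.05 in entire lglRNAi;RasV12-glands and -1.70 ± 0.22 in the PP (SD, n = 3 each). Over all 4 group means, this ratio had the narrowest range of the 6 ratios to Sgs3, although these genes lie on different chromosomes. Its replicates in entire lglRNAi;RasV12-glands were still below all w1118-replicates, with a difference of -0.21 between the means. Sgs7 and Sgs8, which are neighbours and transcribed in opposite directions, had a log2 ratio between 1.38 and 1.80 over all 12 libraries.

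In contrast, Sgs7 varied widely against Sgs3, although both belong to the 68C cluster. There were between 1.77 and 1.94 TPM of Sgs7 per TPM of Sgs3 in w1118-glands and between 1.80 and 1.90 in lglRNAi;RasV12-glands. RasV12-glands ranged from 1.85 to 3.89 and the PP from 1.34 to 3.63. In RasV12-glands replicate 1 was at the level of the controls while replicates 2 and 3 were high, and in the PP replicate 1 was high. The same libraries were high for the ratio of Sgs8 to Sgs3.

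The ratio of Eig71Ee to Sgs3 was -1.70 ± 0.15 in w1118-glands, -2.79 ± 0.70 in RasV12-glands, -4.28 ± 0.24 in entire lglRNAi;RasV12-glands and -3.07 ± 0.57 in the PP (log2 of TPM, SD, n = 3 each). It was below all w1118-libraries in each group with RasV12, and lowest in entire lglRNAi;RasV12-glands. The ratio of Sgs1 to Sgs3 had means of -3.14 ± 0.16, -3.96 ± 0.65, -4.84 ± 0.23 and -4.18 ± 0.44 in the same order of groups (SD, n = 3 each). The ratio of Sgs5 to Sgs3 moved in the opposite direction, from -1.46 ± 0.16 in w1118-glands to -0.23 ± 0.34 in RasV12-glands, -0.67 ± 0.10 in entire lglRNAi;RasV12-glands and 0.12 ± 0.44 in the PP (SD, n = 3 each). Its replicates were above all w1118-replicates in each of these groups.

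**Figure D4:**
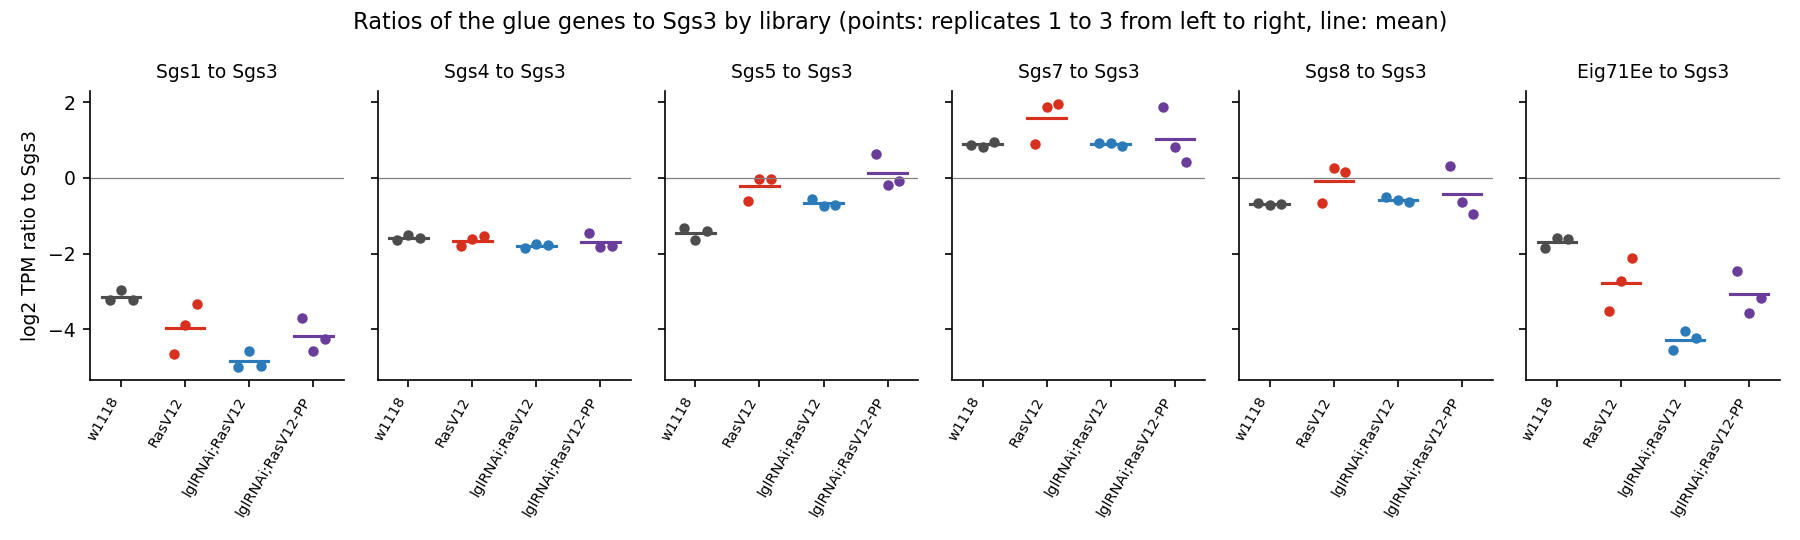
Log2 ratio of the TPM of each glue gene to that of Sgs3 within each library (points: replicates 1 to 3 from left to right, lines: group means). Sgs4 stays between -1.85 and -1.45 in all 12 libraries, the ratios of Sgs1 and Eig71Ee drop in the groups with RasV12, that of Sgs5 is higher there, and those of Sgs7 and Sgs8 are spread widely in RasV12-glands and the PP.

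When the deviations of each library from its group mean were compared (log2 CPM, 12 libraries, as a description), several pairs of glue genes varied together within groups. Pearson's r was highest between Sgs7 and Sgs8 (0.97), Sgs3 and Sgs4 (0.95) and Sgs1 and Eig71Ee (0.91). Sgs5 had an r of 0.80 with Sgs8, 0.70 with Sgs7, 0.69 with Sgs4 and 0.55 with Sgs3. With Sgs1 and Eig71Ee its r was 0.41 and 0.38. Sgs3 and Sgs7 had an r of -0.06, although over all libraries, group differences included, their r was 0.90. Values from the same library share its depth and scaling.

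The genes most like the glue genes were searched among 7693 other genes with enough counts. The highest Pearson's r to the mean profile of the 7 genes over the 12 libraries belonged to lqfR, Zip88E, Sgs5bis, Pi4KIIalpha and Tango1, with 0.99 each. lqfR encodes an epsin-related protein, Zip88E a zinc transporter, Pi4KIIalpha a lipid kinase, and Tango1 a receptor for large cargo at exit sites of the endoplasmic reticulum. Zip88E had 677, 444 and 431 CPM in the w1118-replicates, between 144 and 169 CPM in RasV12-glands, between 117 and 134 CPM in lglRNAi;RasV12-glands and between 57.5 and 69.1 CPM in the PP. Tango1 had 914, 774 and 804 CPM in the w1118-replicates and between 419 and 445 CPM in the PP. All profiles are dominated by the step between w1118-glands and the other groups, so that the 12 points fall into few levels, and they share library depth and scaling. By Spearman's rho, only Sgs5bis of these 5, with 0.99, was also among the first 5.

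For the single genes, CG31698 was closest to both Sgs1 and Eig71Ee (r of 0.99 each, 12 libraries), and CG34279 to both Sgs7 and Sgs8 (r of 0.99 each). CG31698 had 1486, 829 and 995 CPM in the w1118-replicates and between 45.8 and 139 CPM in all other libraries. The closest gene was AdipoR for Sgs3 (r of 0.98), CG7059 for Sgs4 (0.99) and Cda5, a chitin deacetylase gene, for Sgs5 (0.96).

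Further genes named for glue or lying beside the glue genes were looked at in the same fit. Sgs5bis, the neighbour of Sgs5 on 3R, had 11771, 7068 and 7555 CPM in the w1118-replicates and between 1013 and 1626 CPM in RasV12-glands. It had between 734 and 1000 CPM in lglRNAi;RasV12-glands and between 413 and 617 CPM in the PP. Compared to w1118-glands, Sgs5bis was at a log2 fold change of -2.76 in RasV12-glands (SE 0.25, adjusted p = 4.48e-06, edgeR) and -4.04 in the PP (SE 0.26, adjusted p = 2.66e-07, edgeR). The log2 TPM ratio of Sgs5bis to Sgs5 was -1.18 ± 0.17 in w1118-glands and -3.16 ± 0.15 in RasV12-glands (SD, n = 3 each), without overlap. Of the other Sgs genes, Sgsf had between 1804 and 2438 CPM in w1118-glands and between 868 and 2568 CPM elsewhere, and Sgsh at most 4.06 CPM in any library. Neither passed the limits in any of the 6 comparisons.

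Of the 10 neighbours of Eig71Ee in the 71E cluster, 4 had enough counts to be tested. The cluster without Eig71Ee was low, with a summed level between 13.7 and 19.9 CPM in w1118-glands. Eig71Ea had 13.8, 8.90 and 9.97 CPM in the w1118-replicates and between 1.76 and 2.51 CPM in RasV12-glands (log2 fold change -2.41, SE 0.24, adjusted p = 9.67e-06, edgeR). Eig71Eb had between 2.54 and 3.96 CPM in w1118-glands and between 0.391 and 1.99 CPM in all other libraries, and both genes were lower in each group with RasV12, for Eig71Eb not in entire lglRNAi;RasV12-glands with library sizes. Eig71Ec did not exceed 0.609 CPM in any library. Eig71Eg had 41, 31 and 17 estimated counts in the w1118-replicates, 2 in each RasV12-replicate, and 0 in all other libraries, so that it passed the filter on low counts only through w1118-glands and had to be lower elsewhere. Set against 3 counts in the library of each group where these are worth most, it was at least 13.5-fold lower in lglRNAi;RasV12-glands and at least 14.0-fold lower in the PP. Eig71Eh, Eig71Ei and Eig71Ek had 0 counts in every library.

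The new glue genes ng1 to ng4 are salivary gland genes that lie beside Sgs4 within dnc. ng3 had 3010, 3447 and 4327 CPM in the w1118-replicates and between 2042 and 2966 CPM in both kinds of entire glands with RasV12, but 8439, 8888 and 7845 CPM in the PP-replicates. The PP-replicates were thus above all entire glands, unlike those of Sgs4. In both kinds of entire glands with RasV12, 0 of 4 passed the limits against w1118-glands with edgeR or DESeq2, where 2 of 4, ng1 and ng3, had an unadjusted p under 0.05 in each. Both also met the limit on the adjusted p alone, in the lower direction (log2 fold changes between -0.60 and -0.49), as did 23.1% and 23.5% of all tested genes. In the PP, 4 of 4 were higher than in w1118-glands, where 15.7% of all tested genes were higher, and 4 of 4 were higher than in entire lglRNAi;RasV12-glands, where 8.21% were. Against entire lglRNAi;RasV12-glands, the log2 fold changes were 2.28 for ng1 (SE 0.18, adjusted p = 6.68e-06, edgeR), 1.92 for ng2 (SE 0.24, adjusted p = 0.000131, edgeR), 1.71 for ng3 (SE 0.16, adjusted p = 1.94e-05, edgeR) and 1.99 for ng4 (SE 0.37, adjusted p = 0.00165, edgeR). The level of ng4 did not exceed 2.49 CPM in any library.

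**Figure D5:**
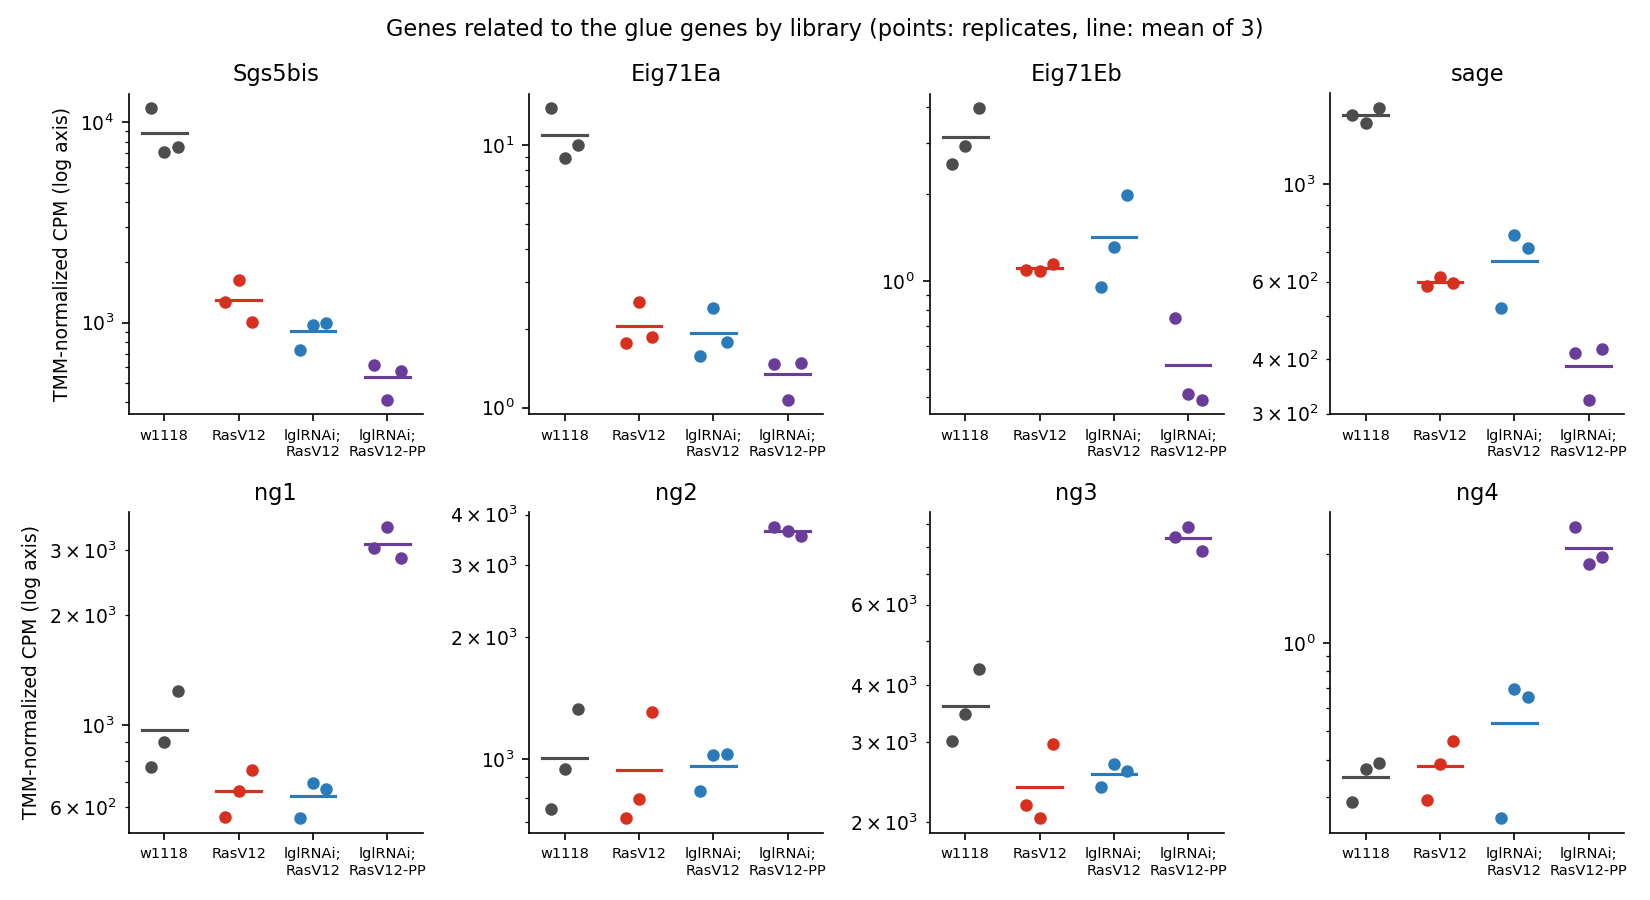
TMM-normalized CPM (log axis, with a range of its own in each panel) of genes related to the glue genes, with 1 point per replicate and a line at the group mean. Sgs5bis, Eig71Ea, Eig71Eb and sage are highest in w1118-glands, whereas ng1 to ng4 are highest in the PP.

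Among 14 gland transcription factors and ecdysone response genes, sage, which encodes a bHLH factor of the salivary gland, had 1441, 1382 and 1494 CPM in the w1118-replicates and 585, 616 and 597 CPM in the RasV12-replicates. It was lower in RasV12-glands (log2 fold change -1.26, SE 0.14, adjusted p = 2.14e-05, edgeR), also with l(2)gl RNAi (-1.11, SE 0.14, adjusted p = 5.17e-05, edgeR), and in the PP (-1.90, SE 0.14, adjusted p = 7.34e-07, edgeR). With library sizes it missed the limit in both kinds of entire glands, at -0.84 and -0.70. fkh, which encodes fork head, had between 221 and 280.0 CPM in w1118-glands and between 264 and 358 CPM in all other libraries, and passed the limits in none of the 6 comparisons. CrebA, a factor for secretory capacity, was lower in the PP than in w1118-glands (log2 fold change -1.36, SE 0.16, adjusted p = 1.82e-05, edgeR), where library sizes gave -0.87, and lower than in entire lglRNAi;RasV12-glands (-1.33, SE 0.16, adjusted p = 9.25e-05, edgeR).

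The ecdysone receptor genes EcR and usp passed the limits in none of the 6 comparisons. Of the early response genes, Eip74EF was lower in the PP than in w1118-glands (log2 fold change -1.18, SE 0.11, adjusted p = 3.35e-06, edgeR) but at -0.70 with library sizes. Eip78C had between 4.73 and 19.7 CPM in the PP and at most 0.839 CPM in entire glands. kay, which encodes the Drosophila Fos, had between 81.7 and 128 CPM in w1118-glands and between 234 and 619.6 CPM elsewhere, and was higher in all 3 groups with RasV12 (log2 fold changes of 1.54, 2.07 and 1.49). Among the 14 genes, 2 passed the limits upwards in RasV12-glands (11.3% of all tested genes), 3 when l(2)gl RNAi was added (12.1%) and 4 in the PP (15.7%), while 1, 1 and 3 passed downwards (8.99%, 7.87% and 11.3%). With library sizes, 5 were higher in entire lglRNAi;RasV12-glands and 7 in the PP. With the replicate number as a block, 2 were higher in entire lglRNAi;RasV12-glands, as Hr3 missed the limits there, which it also did with DESeq2. Hr3 and Eip93F are among those higher and did not exceed 0.683 CPM in any library. Hr3, Eip93F and Eip78C were under the minimum count of 10 in every w1118-library and passed the filter only through groups with RasV12. Their calls upwards against w1118-glands were thus fixed in part by the filter. With edgeR on the TMM scale, kay was the only other gene called upwards in each of these groups.

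Of 12 genes for O-glycosylation of mucins, 11 were matched to the files. In RasV12-glands 0 of 11 passed the limits with edgeR, 1 was lower with DESeq2, 2 were higher with library sizes, and 7 had an unadjusted p under 0.05. These 7 also met the limit on the adjusted p alone, as did 48.9% of all tested genes. Pgant5, which encodes an enzyme that starts these glycans, was lower in the PP than in w1118-glands (log2 fold change -1.44, SE 0.13, adjusted p = 2.35e-06, edgeR) but at -0.97 with library sizes. C1GalTA, the gene of a galactosyltransferase that extends them, was higher in lglRNAi;RasV12-glands (log2 fold change 1.15, SE 0.17, adjusted p = 0.000168, edgeR) and in the PP (1.08, SE 0.17, adjusted p = 0.000199, edgeR). The median log2 fold change of the 11 genes was 0.09 in RasV12-glands, -0.35 in entire lglRNAi;RasV12-glands and -0.36 in the PP.

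Of 15 genes for the formation and release of glue granules, 2 were higher and 1 lower in RasV12-glands, where 11.3% of all tested genes were higher and 8.99% lower. The SNARE genes Snap24 and Syx1A had log2 fold changes of 1.32 (SE 0.12, adjusted p = 4.49e-06, edgeR) and 1.37 (SE 0.20, adjusted p = 0.000150, edgeR), and Syt1 one of -1.01 (SE 0.31, adjusted p = 0.0172, edgeR) with overlapping replicates, which missed the limits with library sizes. Snap24 had between 37.5 and 44.8 CPM in w1118-glands and between 99.3 and 112 CPM in RasV12-glands. In the PP, Rab6, which encodes a Golgi GTPase, had between 330.3 and 371 CPM against between 952 and 1008 CPM in w1118-glands (log2 fold change -1.51, SE 0.08, adjusted p = 6.18e-08, edgeR). The median log2 fold change of the 15 genes was 0.24 in RasV12-glands, 0.18 in entire lglRNAi;RasV12-glands and -0.14 in the PP.

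Transcripts of fat body genes were lower as well. Of 6 such genes (Fbp1, Fbp2, Lsp1alpha, Lsp1beta, Lsp1gamma, Lsp2), 6 were lower in RasV12-glands, 2 in entire lglRNAi;RasV12-glands and 6 in the PP, compared to w1118-glands, and 5 were lower when the PP was set against entire lglRNAi;RasV12-glands. Of all tested genes, 8.99%, 7.87%, 11.3% and 6.24% were lower in these comparisons. The summed level of the 6 fat body genes was between 40353 and 84915 CPM in w1118-glands, between 16856 and 26111 CPM in RasV12-glands, between 25148 and 33564 CPM in lglRNAi;RasV12-glands and between 7679 and 8886 CPM in the PP. None was at 0 in any group. Within w1118-glands, replicate 2 had the highest sum of the fat body genes and the lowest level of each glue gene but Sgs1. The part of this tissue in the differences of the glue genes was not tested.

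Markers of other tissues had low levels. Of 3 markers of duct and trachea, 2 were lower in RasV12-glands and 3 in entire lglRNAi;RasV12-glands than in w1118-glands (1 in either with library sizes, 2 in either with the replicate number as a block), where 8.99% and 7.87% of all tested genes were lower. In the PP 2 were higher than in entire lglRNAi;RasV12-glands (8.21% of all tested genes), with a sum between 13.1 and 18.1 CPM against between 5.20 and 7.33 CPM. The 5 hemocyte markers summed to between 9.34 and 22.4 CPM in w1118-glands, to between 9.20 and 12.7 CPM in RasV12-glands, to between 10.3 and 35.4 CPM in entire lglRNAi;RasV12-glands and to between 22.7 and 45.5 CPM in the PP. The PP thus overlapped with entire lglRNAi;RasV12-glands. Of the 5, 4 were higher in the PP than in RasV12-glands (8.7% of all tested genes) and 1, Hml, than in w1118-glands (15.7%), there with overlapping replicates. With library sizes, 3 of 5 were higher than in w1118-glands. Against entire lglRNAi;RasV12-glands 0 of 5 passed with edgeR or DESeq2, where 2 had an unadjusted p under 0.05 and 1 was higher with the replicate number as a block. The 4 muscle markers summed to between 8.41 and 47.4 CPM over all libraries. None of these markers was at 0 in any group, and their part in the results was not tested.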

How the data were processed

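RNA of Drosophila salivary glands was sequenced in 12 libraries (4 groups of 3). For each library the authors deposited estimated counts, TPM and effective lengths per transcript, made with kallisto 0.44.0 (the study's methods name dmel r6.19; sleuth 0.30.0 is also named in the processing notes). The kit does not mark strand, and reads were not recounted here. Of 30503 transcripts, 30279 were matched to genes, and the other 224 held between 0.197% and 0.359% of the counts. Deposited estimated counts were summed per gene and rounded, and deposited TPM were summed per gene.

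Genes were filtered with filterByExpr (minimum count 10, 9012 genes kept), normalized with TMM and tested over all 12 libraries with edgeR 4.0.16 in R 4.3.3, in 6 comparisons with Benjamini-Hochberg adjustment. With 3 against 3 replicates an exact permutation test cannot go below p = 0.1 and was not used. The scripts were tested on simulated data. Library sizes, DESeq2 1.42.0, limma 3.58.1 on TPM (pseudocounts 1 and 0.1), other filters, a replicate block and the omission of each replicate were the alternatives. Samples with the same replicate number deviated together for RasV12 against w1118 (r of 0.15, 0.12 and 0.21) and for lglRNAi;RasV12 against w1118 (r of 0.21, 0.22 and 0.18). They did not do so for lglRNAi;RasV12 against RasV12 (r of -0.06, -0.32 and 0.33). In the comparisons with the PP, each r was negative, between -0.21 and -0.05. The reported fit had no replicate term, so its SE and adjusted p treat the libraries as unpaired. A pairing, known only from the replicate numbers and seen in only some of the comparisons, entered only the alternative with a replicate block. Named genes were the 7 members, the closest genes by Pearson's r (5 for their mean, 1 per member) and members of the gene lists that passed both limits or mark the list. The members and lists were chosen with earlier results of these data known. Promoter motifs and protein features were not analysed here, as no sequence tables were used.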

Additional observations from a re-analysis of the deposited data

How the results depend on the processing

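Of 672 pairs of a log2 fold change of a glue gene and an alternative (42 values, with 10 alternatives and 6 omissions of a replicate each), 633 kept the direction and the side of the limits, 17 lost and 17 gained the call, and 5 changed sign, all of values that did not pass. The number of glue genes lower in lglRNAi;RasV12-glands than in w1118-glands was 3 with limma on TPM with either pseudocount, in place of 6. Against w1118-glands, Sgs7 and Sgs8 in RasV12-glands and Sgs5 in the PP each lost the call in 3 of the 10 alternatives. These include library sizes and limma on TPM. The number lower in the PP than in RasV12-glands was 7 by the adjusted p alone, in place of 4. The cause of these changes was not tested, other than that the latter drops the limit on the fold change. Omitting single replicates gave 6 to 7 genes for each kind of entire glands and 7 for the PP against w1118-glands, 0 to 1 in lglRNAi;RasV12- against RasV12-glands, 4 in the PP against entire lglRNAi;RasV12-glands and 4 to 6 against RasV12-glands. With the replicate block the counts were 6, 6, 7, 1, 4 and 4 in the same order, and it changed no call of a glue gene. The sign turned for Eig71Ee between the PP and entire lglRNAi;RasV12-glands with library sizes (0.032) and on omission of single replicates (-0.20 to 0.11), and for Sgs8 between lglRNAi;RasV12- and RasV12-glands on omission of single replicates (-0.22 to 0.031). The summed glue share was 45.9%, 26.1%, 24.5% and 10.9% in percent of TPM, in place of 31.0%, 10.6%, 10.3% and 5.46% of the counts, in w1118-, RasV12-, lglRNAi;RasV12-glands and the PP, by the weight that TPM give to short transcripts. The lowest level of a glue gene was 1835 CPM, so that none of these values rests on few counts, unlike those of other genes of the 71E cluster and of Hr3. Each group had only 3 replicates, and what limits the values of the glue genes was not tested.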
